A study of Mus musculus with 4 samples.

Results

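The genes described here encode the subunits of the voltage-gated sodium channels, the voltage-gated calcium channels and the HCN channels (hyperpolarization-activated, cyclic nucleotide-gated) of cultured mouse cortical neurons. They were chosen by symbol alone: every row whose symbol names a sodium channel α or β subunit (Scn with a number and a or b), a calcium channel α1 or α2δ subunit (Cacna1, Cacna2d), a calcium channel β subunit (Cacnb1 to Cacnb4) or an HCN channel (Hcn with a number). The Cacng genes and symbols ending in os were left out. The rule found 34 of the 18854 genes in the table: 8 sodium α, 4 sodium β, 10 calcium α1, 4 calcium α2δ, 4 calcium β and 4 HCN genes. Total RNA came from wild-type cortical neurons that had been cultured for 15 days in vitro (DIV). One group then received a p53 activator, Nutlin-3, for 2 days, and the other is titled DMSO, the usual solvent. Nutlin-3 is a small molecule that keeps Mdm2 from binding p53, so that p53 protein is not degraded. There were 2 libraries per group, and for the DMSO libraries the sample titles, which name the solvent, were followed over a treatment field that gives none. Nothing in the labels tells whether a group's libraries are from different cultures. The p-values therefore reflect the spread between these samples alone, taken mostly from other genes, and that spread may be technical.

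A voltage-gated sodium channel has 1 large α subunit that forms the pore and opens the action potential, with small β subunits that tune its gating and its place in the membrane. A high-voltage calcium channel has a pore-forming α1 subunit, a cytoplasmic β subunit and an extracellular α2δ subunit, the last 2 of which help bring the pore to the surface. T-type α1 subunits open at lower voltages. HCN channels open when the membrane becomes more negative, carry the inward current known as Ih and are tuned by cyclic AMP.

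Levels are in CPM, in which each library has the same total, and rested on 14584247 and 14968028 reads for DMSO and on 19065197 and 17716272 for the p53 activator. A log2 fold change below is the activator minus DMSO on log2(CPM + 1), which understates the change of low genes, and a gene was called at an adjusted p under 0.05 in limma (Benjamini-Hochberg over 16654 genes). The libraries differed in composition by group. RNAs of the mitochondrial genome took 15.6% and 14.3% of the reads with DMSO and 8.97% and 9.99% with the activator, and nuclear protein-coding genes took 73.4% and 75.8% against 83.0% and 82.6%. CPM share a fixed total, and the median protein-coding gene had a log2 fold change of 0.09 in CPM and of -0.05 after scaling to the protein-coding total alone. Each rise of a channel gene or named partner below is given beside that second scale, called the protein-coding scale, while marker levels are in CPM alone. The 6 pan-neuronal marker genes summed to 5935 to 6642 CPM with DMSO and 6703 to 6816 CPM with the activator, beside 1035 to 1073 and 1132 to 1163 CPM for 7 astrocyte markers and 11.6 to 12.3 and 10.95 to 11.96 CPM for 4 microglia markers, so the libraries held some glial RNA. Of the p53 target genes checked, Mdm2 had a log2 fold change of -0.16 (limma adjusted p = 0.166) and Cdkn1a of 0.19 (adjusted p = 0.215), and Trp53, which encodes p53, of 0.07 (adjusted p = 0.761). On the protein-coding scale Mdm2 was called lower (-0.31, adjusted p = 0.00853).

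The gene with the clearest fall, Cacna1d, is shown first with its promoters, beside its closest relative Cacna1c, which was not called, and beside a pair of genes that rose, Cacna2d1 and Scn2b. Cacna1d and Cacna1c encode the pore subunits of the L-type calcium channels of neurons. The sequences are 300-base RefSeq windows of GRCm38.p6 around an annotated start, and 24 of the 34 genes had at least 1. The study's own notes name another build, so the windows were matched by gene symbol only. Capitals mark the p53 half-site (the 10-base consensus of which a p53 response element has a pair) and the GC box GGGCGG, both searched on both strands, and GC box matches may overlap one another.
Cacna1d, start with many CG pairs, chr14:30353437-30353736, minus strand: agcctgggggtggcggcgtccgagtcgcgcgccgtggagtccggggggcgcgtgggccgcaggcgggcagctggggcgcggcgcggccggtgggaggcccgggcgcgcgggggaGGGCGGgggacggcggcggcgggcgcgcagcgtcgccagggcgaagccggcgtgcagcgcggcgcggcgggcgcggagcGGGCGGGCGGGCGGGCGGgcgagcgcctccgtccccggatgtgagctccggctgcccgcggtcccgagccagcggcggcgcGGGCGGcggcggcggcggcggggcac
Cacna1d, upstream start, chr14:30491107-30491406, minus strand: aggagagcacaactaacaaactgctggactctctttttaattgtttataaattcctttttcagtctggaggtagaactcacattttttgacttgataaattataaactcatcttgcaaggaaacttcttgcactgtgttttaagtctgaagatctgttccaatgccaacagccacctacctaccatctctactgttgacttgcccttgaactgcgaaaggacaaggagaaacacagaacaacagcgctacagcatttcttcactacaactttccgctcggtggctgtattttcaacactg
Cacna1c, start with many CG pairs, chr6:119108446-119108745, minus strand: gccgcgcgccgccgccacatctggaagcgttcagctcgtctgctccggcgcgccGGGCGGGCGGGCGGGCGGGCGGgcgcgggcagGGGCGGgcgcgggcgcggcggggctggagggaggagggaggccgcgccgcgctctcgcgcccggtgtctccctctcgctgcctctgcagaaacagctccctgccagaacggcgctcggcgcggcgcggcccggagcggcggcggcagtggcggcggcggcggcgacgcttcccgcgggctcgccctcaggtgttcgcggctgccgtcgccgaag
Cacna1c, upstream start, chr6:119196360-119196659, minus strand: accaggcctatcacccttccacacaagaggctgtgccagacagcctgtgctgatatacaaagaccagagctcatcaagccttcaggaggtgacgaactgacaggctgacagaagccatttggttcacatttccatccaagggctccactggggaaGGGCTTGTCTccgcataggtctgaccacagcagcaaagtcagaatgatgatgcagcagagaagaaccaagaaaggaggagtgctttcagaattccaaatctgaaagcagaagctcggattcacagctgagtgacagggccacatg
Cacna2d1, chr5:15934441-15934740, plus strand: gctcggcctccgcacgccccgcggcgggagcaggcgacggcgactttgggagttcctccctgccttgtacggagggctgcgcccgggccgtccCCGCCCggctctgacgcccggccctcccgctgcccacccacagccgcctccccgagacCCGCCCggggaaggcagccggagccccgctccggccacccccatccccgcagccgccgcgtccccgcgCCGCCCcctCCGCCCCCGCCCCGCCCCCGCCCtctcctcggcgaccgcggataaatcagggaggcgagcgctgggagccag
Scn2b, chr9:45117626-45117925, plus strand: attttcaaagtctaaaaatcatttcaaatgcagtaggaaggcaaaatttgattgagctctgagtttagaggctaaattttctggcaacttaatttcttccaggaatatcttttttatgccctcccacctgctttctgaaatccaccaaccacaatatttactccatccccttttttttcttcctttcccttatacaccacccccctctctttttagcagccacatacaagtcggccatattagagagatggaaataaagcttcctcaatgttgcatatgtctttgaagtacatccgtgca
Cacna1d and Cacna1c were alike in having a start rich in CG pairs (63 and 57 in the 300 bases) with 6 GC box matches each. In addition, both had an upstream start poor in CG pairs (4 and 3). Another annotated window of Cacna1c, not printed, held no match. The upstream window of Cacna1c held 1 p53 half-site match and neither window of Cacna1d held one. Cacna2d1 had 7 GC box matches and Scn2b had no match to either motif, with 2 CG pairs. A p53 half-site matched in 2 of the 34 windows of these channel genes (5.88%), those of Cacna1c and Scn7a, beside 8.36% of all 32851 windows in the RefSeq table. A GC box matched in 16 of 34 (47.1%), beside 35.7% of all windows. A match is a run of letters and says nothing of binding.

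With the p53 activator, the genes that rose had ratios of the group means in CPM from 1.19 to 1.29. They included the sodium channel genes Scn2a, Scn2b and Scn3b, the calcium channel genes Cacna2d1, Cacnb1 and Cacnb3, and the HCN genes Hcn3 and Hcn4. The calcium channel pore genes Cacna1d and Cacna1f fell. Of the 34 genes, 32 had at least 1 CPM in 2 libraries and were tested, 10 were called higher and 2 lower. The 2 not tested, Cacna1s and Scn11a, reached at most 0.754 and 0.682 CPM in any library. The 10 are 31.2% of those tested, beside 16.9% of all genes tested and 21.2% of nuclear protein-coding genes. The 2 that fell are 6.25%, beside 16.3% and 7.19%. One of these, Cacna1f, passed the filter only through DMSO. The median log2 fold change of the 32 was 0.15, beside 0.03 over all genes and 0.09 over protein-coding genes. In 15 of the 32 both activator libraries lay above both DMSO libraries (46.9%, beside 36.6% of all genes tested), and in 2 both lay below (6.25%, beside 30.9%). These 2 shares over all genes were not computed for protein-coding genes, of which fewer were called lower (7.19%, against 16.3%). Where the activator was higher, the called changes ran from 0.25 to 0.35 on the log2 scale.

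On the protein-coding scale 9 of the 10 rises lost their call and both falls were called. Channel genes called higher there were 1 of 32, or 3.12%, beside 4.37% of protein-coding genes, and Cacna1d and Cacna1f, called lower, are 6.25%, beside 13.1%. The edgeR quasi-likelihood test with TMM scaling on the recovered reads tested 33 of the genes. It called 7 higher (21.2%, beside 10.6% of all genes and 13.6% of protein-coding genes) and 2 lower (6.06%, beside 16.1% and 7.84%). In limma the calls were 3 higher and 1 lower without DMSO replicate 1, 9 and 1 without DMSO replicate 2, 8 and 3 without p53 activator replicate 1, and 5 and 2 without p53 activator replicate 2. Cacna1f could not be tested without DMSO replicate 1 or 2. Cell type markers also moved over the same libraries, in CPM alone. Of 7 tested inhibitory neuron markers 4 rose (summed level 601 to 643 CPM with DMSO and 767 to 786 CPM with the activator). Dlx1, named after its values were seen, lay lower without a call (-0.26). Of 6 excitatory neuron markers 3 rose (1778 to 1951 and 1939 to 1943 CPM), and of 6 pan-neuronal markers 3 rose and 1 fell. These counts are to be set beside 16.9% higher and 16.3% lower over all genes tested in limma, and 21.2% and 7.19% over protein-coding genes. The oligodendrocyte lineage markers summed to 166 to 172 and 188 to 191 CPM. The median log2 fold change was 0.31 for inhibitory, 0.23 for excitatory, 0.27 for pan-neuronal, 0.16 for oligodendrocyte lineage and -0.01 for astrocyte markers. Their part in the channel results was not tested. In bulk RNA, fewer cells of a type and less RNA per cell cannot be told apart.

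**Figure D1:**
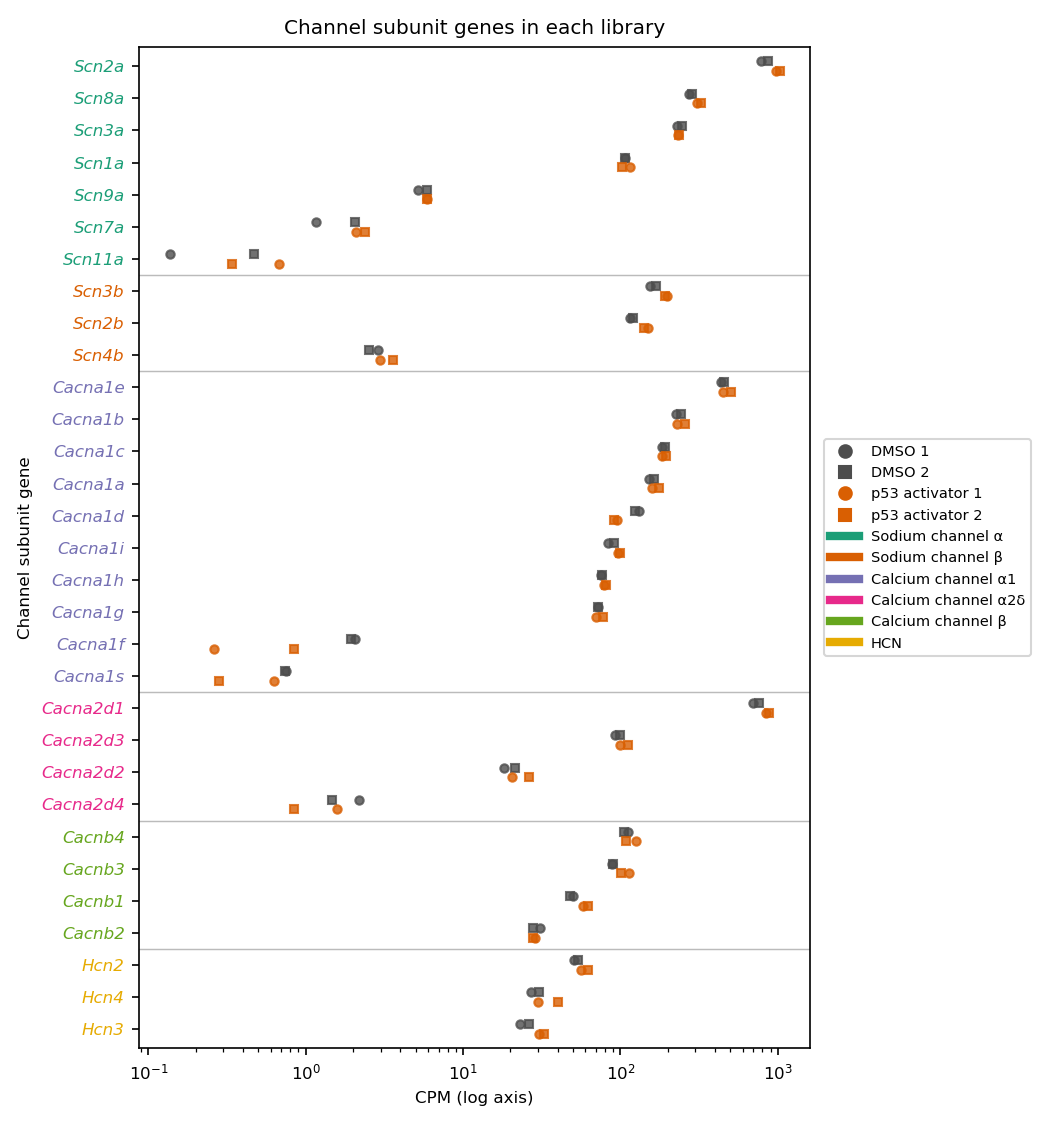
CPM of 31 of the 34 channel subunit genes (rows, coloured by class and ordered by the DMSO mean within a class) in the 2 DMSO libraries (grey) and the 2 p53 activator libraries (orange), on a log axis. Scn2a is the highest, at 785 to 1028 CPM, and Cacna1d is the only gene above 10 CPM in which both activator points lie left of both DMSO points.

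**Figure D2:**
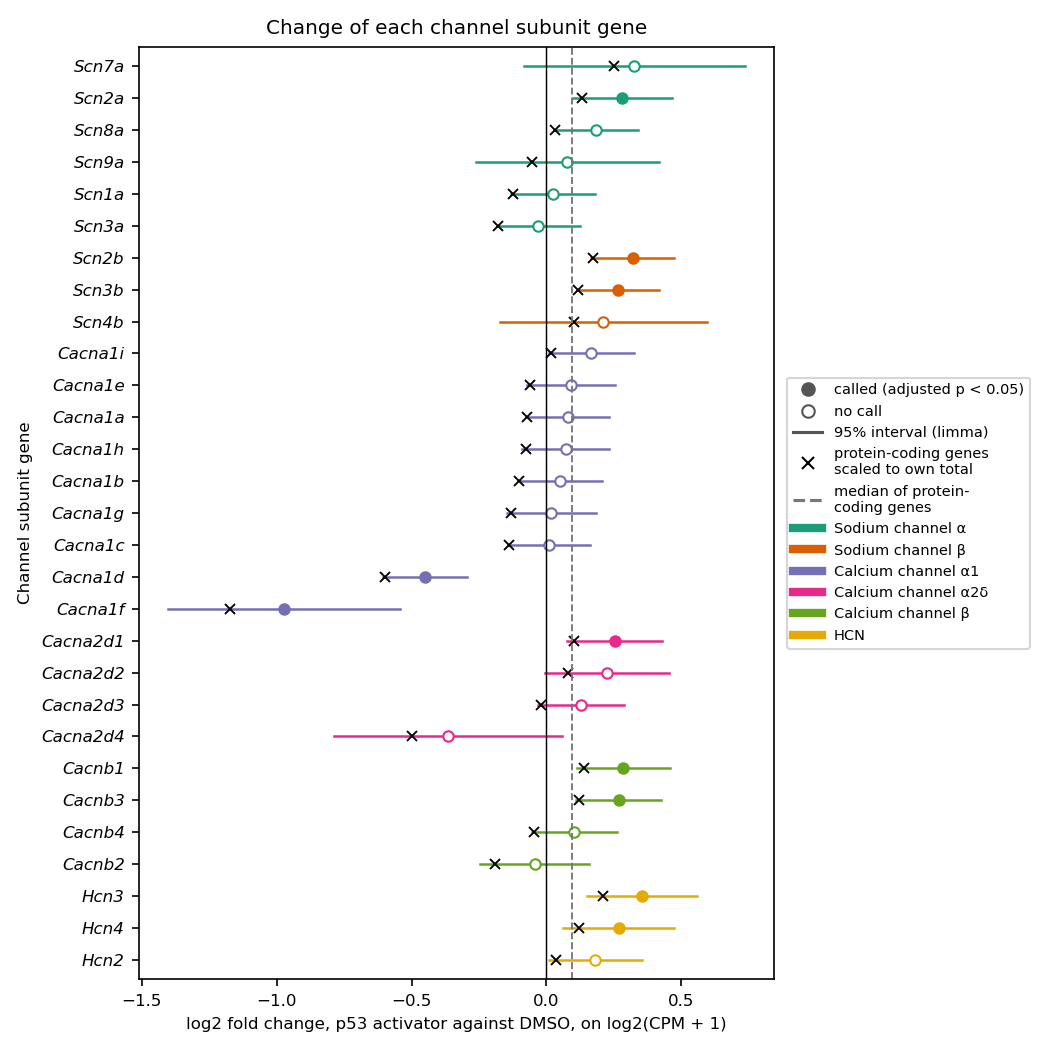
Log2 fold change (points, filled where called) with limma's 95% interval (lines) for 29 of the 32 genes tested, and the value on the protein-coding scale (crosses). Cacna1d and Cacna1f lie left of 0 on both scales, and the filled points right of 0 run from 0.25 to 0.35.

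Among the sodium channel α subunits, Scn2a was the 1 of 7 tested that rose (14.3%, near the 16.9% of all genes tested). Scn2a is the main sodium channel of young excitatory axons, and it was also the most abundant of the 34 genes in reads. It stood at 785 and 863 CPM with DMSO, against 974 and 1028 CPM with the activator. Both activator libraries lay above both DMSO libraries (log2 fold change 0.28 ± 0.09 SE, limma adjusted p = 0.0119). The call was lost on the protein-coding scale (0.13, adjusted p = 0.190), in edgeR (0.25, adjusted p = 0.0767), and without any one of DMSO replicate 1 (0.21) and p53 activator replicates 1 (0.32) and 2 (0.24). Scn8a, the sodium channel of mature axon initial segments and nodes, stood at 272 and 286 CPM with DMSO, against 308 and 326 CPM with the activator. Its groups did not overlap either, but its log2 fold change of 0.18 ± 0.08 had an adjusted p of 0.0605 in limma. On the protein-coding scale the value for Scn8a was 0.03, also with no call.

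Scn1a, the sodium channel best known from fast-spiking interneurons, had close levels in both groups. It stood at 107 and 108 CPM with DMSO, against 116 and 103 CPM with the activator, a log2 fold change of 0.02 with a 95% interval from -0.13 to 0.18. Scn3a, which dominates in the embryonic brain, stood at 230 and 246 CPM with DMSO, against 231 and 235 CPM with the activator, a log2 fold change of -0.03 (interval -0.18 to 0.12). The libraries of the groups overlapped for both genes, and both intervals leave out a rise or fall as large as that of Cacna1d. Scn3a had a log2 fold change of -0.18 on the protein-coding scale (limma adjusted p = 0.0512), and it was called lower when protein-coding genes were aligned by cyclic loess (-0.22, adjusted p = 0.0138).

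Other α subunits were low. Scn9a, known from sensory neurons, stood at 5.21 and 5.95 CPM with DMSO and 5.93 CPM in both activator libraries. Scn7a, a sodium-sensing relative found in glia, stood at 1.17 and 2.07 CPM and at 2.10 and 2.37 CPM. None of these had a call, and their intervals are wide: that of Scn7a runs from -0.08 to 0.74. Scn11a, another sensory neuron channel, had between 2 and 13 reads per library, at 0.137 and 0.468 CPM with DMSO and 0.682 and 0.339 CPM with the activator.

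Because a share within a class does not depend on the scale of a library, the α subunits were also compared as shares of their summed CPM per kb of annotated exon. Scn2a made up 57.1% and 58.1% of the sodium α signal with DMSO and 60.6% and 61.7% with the activator. Scn3a went the other way, from 17.1% and 16.95% to 14.7% and 14.4%. For both genes the groups did not overlap. Shares in a class have a fixed sum, so the larger share of Scn2a and the smaller share of Scn3a are not independent. In CPM the groups of Scn3a overlapped (log2 fold change -0.03). The ratio of Scn2a to Scn3a per length was 3.34 and 3.43 with DMSO and 4.12 and 4.28 with the activator. With 2 libraries against 2, an exact permutation test (two-sided) gave p = 0.333, the smallest it can give, for this ratio and for the shares of Scn2a and Scn3a. Scn8a held 15.8% ± 0.297 of the class with DMSO and 15.6% ± 0.240 with the activator (SD, n = 2 each).

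**Figure D3:**
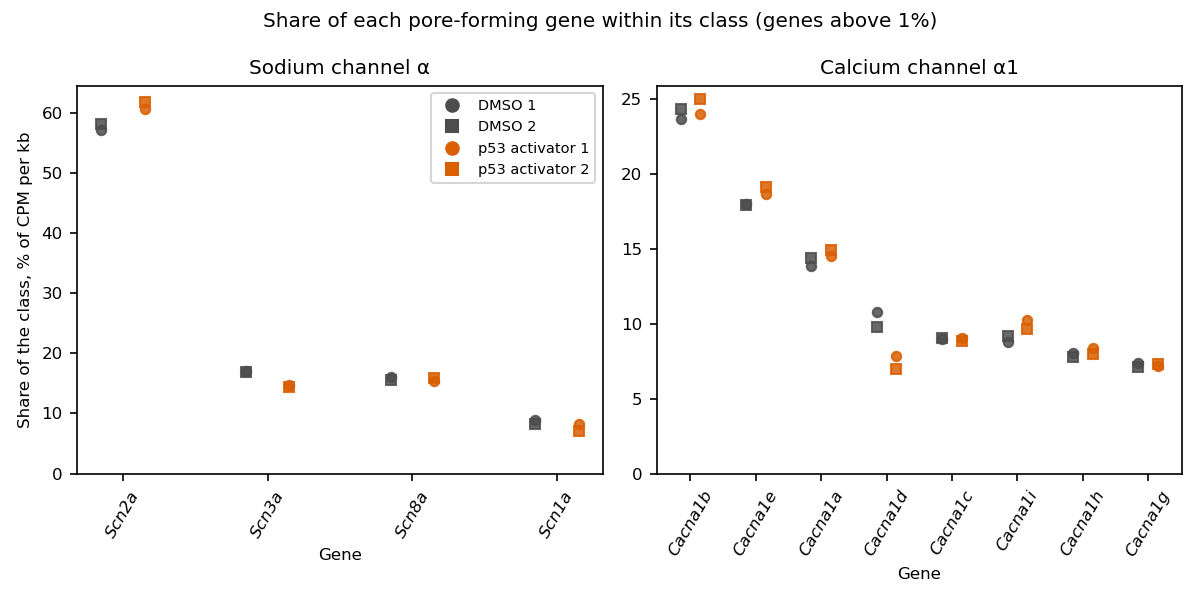
Share of each pore-forming gene in its class, in % of the class's summed CPM per kb, for sodium channel α genes (left) and calcium channel α1 genes (right) above 1%, with DMSO libraries in grey and p53 activator libraries in orange. Scn2a lies higher with the activator, Scn3a and Scn1a lie lower, and Cacna1d drops from 10.8% and 9.82% to 7.86% and 6.99%.

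Among the sodium channel β subunit genes, Scn2b and Scn3b rose. These are single-pass membrane proteins with an immunoglobulin fold that bind the α subunit and other adhesion molecules. Scn2b stood at 114 and 120 CPM with DMSO, against 151 and 142 CPM with the activator, and its groups did not overlap. Its log2 fold change was 0.32 ± 0.08 (SE; limma adjusted p = 0.000687), and it was called without each of the 4 libraries in turn (0.28 to 0.36). Scn3b stood at 154 and 169 CPM and at 197 and 192 CPM (0.26, adjusted p = 0.00492). The call of Scn3b was lost without DMSO replicate 1 (0.20). Scaled to the protein-coding total, the log2 fold changes of Scn2b and Scn3b were 0.17 and 0.12, with limma adjusted p of 0.0829 and 0.262. Scn4b, the β subunit linked to resurgent sodium current, was low at 2.88 and 2.54 CPM with DMSO and 2.99 and 3.61 CPM with the activator, with no call. Per kb of exon Scn2b and Scn3b stood at 25.1 ± 0.792 and 29.6 ± 1.93 CPM per kb with DMSO (SD, n = 2), and Scn4b at 0.544. Their shares of the class moved by less than 1 percentage point between the group means.

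Of the 9 calcium channel α1 subunits tested, Cacna1d and Cacna1f were called lower and no other was called in the fit reported. That is 22.2%, beside 16.3% of all genes tested and 7.19% of protein-coding genes. Cacna1f was kept by the filter only through the DMSO libraries, so this share describes the calls and is no evidence about the class. One more α1 gene, Cacna1i, had an unadjusted p under 0.05. With the replicate numbers as a block limma called it higher (0.17, adjusted p = 0.0344), while edgeR with TMM and DESeq2 called no α1 gene higher. Cacna1d encodes the L-type pore that opens at comparatively negative voltages and supports pacemaking and signalling from the membrane to the nucleus. It stood at 131 and 124 CPM with DMSO, against 94.99 and 91.6 CPM with the activator. The groups were well apart: the lower DMSO library was above the higher activator library, and the group means were 128 ± 4.93 and 93.3 ± 2.39 CPM (SD, n = 2 each), a ratio of 0.730. The log2 fold change was -0.45 ± 0.08 (SE), with a 95% interval from -0.61 to -0.29 and a limma adjusted p of 2.82e-06. It was called lower in all 17 alternative fits run (-0.61 to -0.41, adjusted p from 2.11e-10 to 0.0337), including the protein-coding scale (-0.60) and each fit without 1 library. Exons of Cacna1d overlap Chdh on the opposite strand in the annotation, over 4.67% of its exon length, and Chdh stood at 1.19 to 2.74 CPM. The strand setting of the authors' counting is not given in the sources used here.

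Cacna1c, the other L-type pore gene of neurons, had no such change. Its levels were 183 and 193 CPM with DMSO and 184 and 194 CPM with the activator, so that the groups overlapped almost fully (log2 fold change 0.01, interval -0.14 to 0.16). The ratio of Cacna1d to Cacna1c per length was 1.203 and 1.08 with DMSO and 0.867 and 0.791 with the activator. Within the α1 class the share of Cacna1d per length went from 10.8% and 9.82% to 7.86% and 6.99%, and the group means moved from 10.3% to 7.42%. An exact two-sided permutation test gave p = 0.333 for the ratio and for the share, the smallest that 2 against 2 can give. The share's log2 ratio of -0.48 lay between -0.56 and -0.39 when each library was left out.

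Cacna1f, the L-type pore gene best known from photoreceptors, was at the edge of detection. It had 30 and 29 reads in the DMSO libraries, or 2.06 and 1.94 CPM, and 5 and 15 reads in the activator libraries, or 0.262 and 0.847 CPM. The groups did not overlap, and the log2 fold change was -0.97 ± 0.22 (limma adjusted p = 0.000217), or -1.89 in edgeR, which adds no fixed pseudocount of 1 (adjusted p = 0.00269). Cacna1f passed the filter on low values only through the DMSO libraries, where it is high. A gene under 1 CPM in both activator libraries is kept only if both DMSO libraries reach 1 CPM. The groups of such a gene cannot overlap, so the call of Cacna1f is given as a description. Without p53 activator replicate 1 the value was -0.70 and without p53 activator replicate 2 it was -1.25. Cacna1s, the skeletal muscle L-type pore gene, was lower still, with 11 and 11 reads against 12 and 5, and was not tested.

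The α1 genes of the presynaptic and T-type channels were not called in the fit reported. Cacna1a, which encodes the P/Q-type pore that triggers release at most synapses, stood at 153 and 165 CPM with DMSO and 159 and 177 CPM with the activator. Cacna1b, the N-type pore gene, stood at 227 and 243 CPM and at 229 and 258 CPM. Cacna1e, the R-type pore gene and the highest of the class in reads, stood at 438 and 454 CPM and at 451 and 501 CPM. For all 3 the groups overlapped, with log2 fold changes of 0.08, 0.05 and 0.09 in CPM and of -0.07, -0.10 and -0.06 on the protein-coding scale. Exons of Cacna1a overlap Gm16183 on the opposite strand over 3.81% of their length, and Gm16183 itself stood at 11.4 and 9.62 CPM with DMSO and 5.87 and 4.74 CPM with the activator. The T-type genes Cacna1g and Cacna1h stood at 72.3 to 72.4 and 75.6 to 76.2 CPM with DMSO and at 69.6 to 77.1 and 78.2 to 81.3 CPM with the activator (log2 fold changes 0.02 and 0.07). Cacna1i, the third T-type gene, went from 83.8 and 90.8 CPM to 96.8 and 99.2 CPM without overlap, with a log2 fold change of 0.17 and a limma adjusted p of 0.0986. On the protein-coding scale the value for Cacna1i was 0.02, with no call. Per kb the order of the class with DMSO was Cacna1b (23.6 CPM per kb), Cacna1e (17.7), Cacna1a (13.9) and Cacna1d (10.1), and with the activator Cacna1d, at 7.39 CPM per kb, stood below Cacna1c (8.93), Cacna1i (9.94) and Cacna1h (8.17).

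The α2δ subunit genes were led by Cacna2d1, the gabapentin-binding subunit that raises the number of channels at the surface. Its levels were 697 and 755 CPM under DMSO and 846 and 883 CPM under the activator, so the groups did not overlap. The log2 fold change was 0.25 ± 0.09 (SE; limma adjusted p = 0.0209), and a single left-out library could end the call. It was 0.19 without DMSO replicate 1, and 0.28 and 0.22 without p53 activator replicates 1 and 2, each with no call. It was 0.10 on the protein-coding scale and 0.22 in edgeR with TMM, again with no call (adjusted p = 0.325 and 0.109). Per length, Cacna2d1 made up 81.0% ± 0.0732 of the class with DMSO and 82.1% ± 0.987 with the activator. Cacna2d3 stood at 92.4 and 100.1 CPM and at 99.1 and 112 CPM, and Cacna2d2 at 18.2 and 21.4 CPM and at 20.6 and 26.2 CPM. Both overlapped between groups, and Cacna2d2 was called higher without p53 activator replicate 1 (0.39). Cacna2d4, a retinal subunit, was low, at 2.19 and 1.47 CPM with DMSO and 1.57 and 0.847 CPM with the activator, with a log2 fold change of -0.37 and no call, and was called lower without p53 activator replicate 1 (-0.60).

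Cacnb1 and Cacnb3 rose among the cytoplasmic calcium channel β subunits, and Cacnb2 and Cacnb4 did not pass the test. These proteins bind the loop between the first repeats of the α1 subunit and set its gating and surface level. Cacnb3 stood at 88.0 and 89.9 CPM with DMSO, against 113 and 102 CPM with the activator, or 0.27 ± 0.08 on the log2 scale (SE; limma adjusted p = 0.00594). Cacnb1, also the β subunit of skeletal muscle, stood at 50.3 and 48.2 CPM and at 58.1 and 62.4 CPM (0.28, adjusted p = 0.00705). Neither overlapped between groups. The call of Cacnb3 was lost without DMSO replicate 1 (0.25) or p53 activator replicate 1 (0.19), and that of Cacnb1 without DMSO replicate 2 (0.25) or p53 activator replicate 2 (0.23). Both calls were also lost on the protein-coding scale, at 0.12 for Cacnb3 and 0.14 for Cacnb1 (adjusted p = 0.288 and 0.271). Cacnb4, the subunit mutated in the lethargic mouse, stood at 112 and 106 CPM and at 126 and 109 CPM (0.10), and Cacnb2 at 31.0 and 27.7 CPM and at 28.7 and 28.1 CPM (-0.04), so both overlapped. Exons of Cacnb4 and Cacnb2 overlap other transcripts on the opposite strand over 15.99% and 7.32% of their length. Gm13269, one of those overlapping Cacnb2, stood at 4.87 and 4.08 CPM with DMSO and 2.47 and 2.09 CPM with the activator.

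Among the HCN channels Hcn3 and Hcn4 rose. Hcn3 is expressed at low levels in much of the brain. It stood at 23.0 and 26.2 CPM and at 30.6 and 32.8 CPM without overlap (log2 fold change 0.35 ± 0.10 SE, limma adjusted p = 0.00502), and its call was lost without DMSO replicate 1 (0.26) or p53 activator replicate 2 (0.30). Hcn4, the channel of the cardiac pacemaker and thalamus, stood at 27.2 and 30.4 CPM and at 30.1 and 40.2 CPM. Its groups overlapped, and its call (0.27, adjusted p = 0.0362) rested on p53 activator replicate 2: without that library the log2 fold change was 0.06, and without DMSO replicate 1 it was 0.19 with no call. Neither Hcn3 (0.21) nor Hcn4 (0.12) was called on the protein-coding scale. Hcn2, a channel strongly tuned by cyclic AMP, stood at 50.7 and 53.8 CPM and at 56.6 and 62.2 CPM without overlap (0.18, adjusted p = 0.0958). On the protein-coding scale the value for Hcn2 was 0.03, with no call. Per kb Hcn2 stood at 16.3 CPM per kb with DMSO, above Hcn3 at 5.93 ± 0.536 and Hcn4 at 4.70 ± 0.375 (SD, n = 2). Exons of Hcn3 overlap Pklr on the opposite strand over 17.1% of their length, and Pklr stood at 0.339 to 1.03 CPM.

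**Figure D4:**
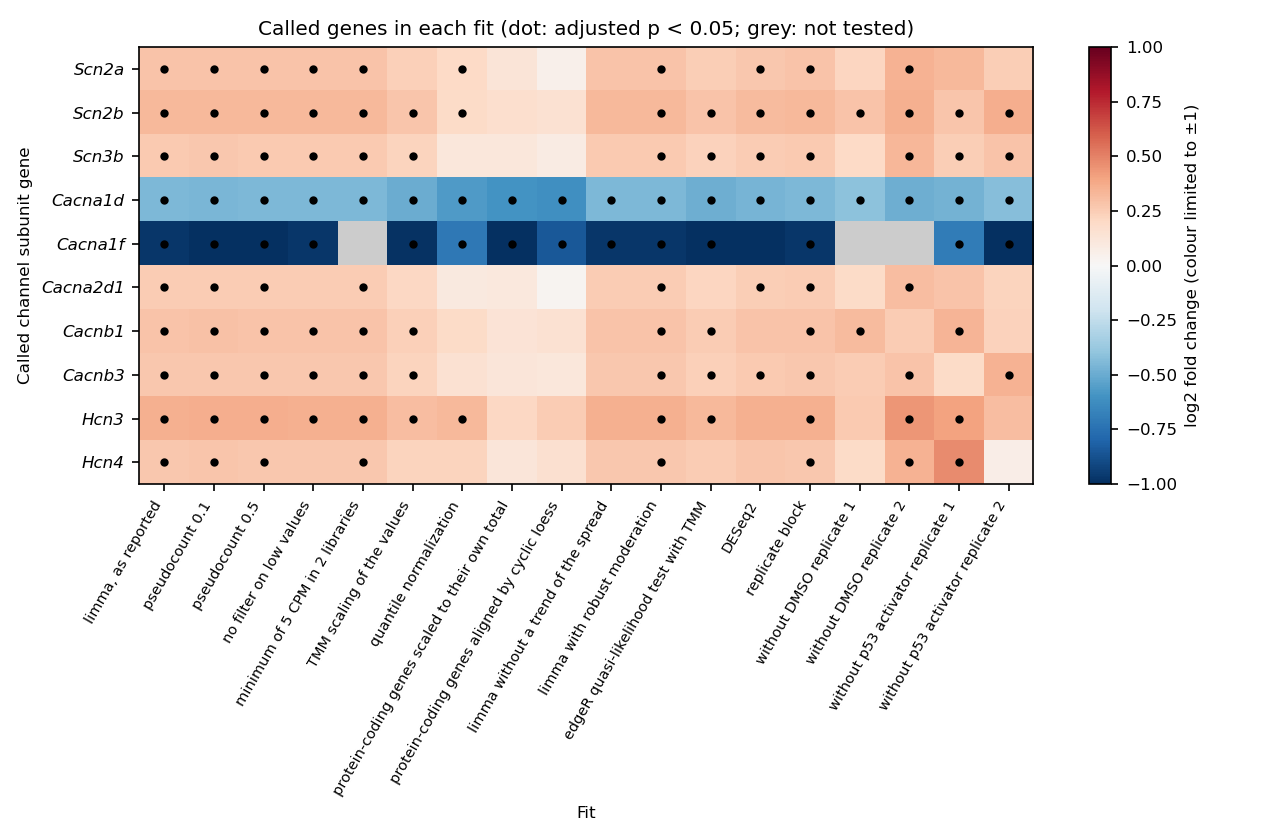
Log2 fold change (colour) of 10 of the called genes in the fit reported and in the 17 alternatives, with a dot where the adjusted p was under 0.05 and grey where a gene was not tested. Cacna1d carries a dot in every column, and none of the rises shown has a limma dot where scaled to the protein-coding total.

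Over the 32 tested genes, the genomic span of a gene and its log2 fold change had a Spearman rho of -0.38, given as a description of genes that share their libraries. Mean CPM and log2 fold change had a rho of 0.07. The spans varied within a class: among the α1 genes, Cacna1d spans 451517 bases in GENCODE vM21 and Cacna1c 609179, but Cacna1h spans 59499 and Cacna1f 28114. Of the genes that rose, Scn2b spans 12289 bases, Scn3b 22402 and Cacna2d1 439821.

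Genes of proteins that bind these channels were read from the same fit, by lists written for each channel. Counts in these lists are to be set beside 16.9% higher and 16.3% lower over all genes tested, and 21.2% and 7.19% over protein-coding genes. Of 14 sodium channel partners 7 rose and 1 fell (median 0.23). Fgf14, an intracellular fibroblast growth factor homologue that binds the α subunit's tail at the axon initial segment, fell from 145 ± 4.65 to 106 ± 7.64 CPM (SD over 2 libraries), or -0.46 on the log2 scale (limma adjusted p = 1.56e-06), and was called without each library in turn. Its relatives Fgf11 (0.38), Fgf12 (0.24) and Fgf13 (0.28) rose, and are named here for that after their values were seen. The fall of Fgf14 was called on the protein-coding scale (-0.61) and the rises of the other 3 were not (0.25, 0.09 and 0.13). The rises were also lost without DMSO replicate 1 for Fgf11 (0.26) and Fgf13 (0.17), without DMSO replicate 2 for Fgf12 (0.22), and without p53 activator replicate 1 for all 3 (0.38, 0.11 and 0.20), as well as without p53 activator replicate 2 for Fgf11 (0.39). Calm3, which encodes calmodulin, rose from 895 ± 8.03 to 1135 ± 69.9 CPM (0.34, adjusted p = 0.00262), a call lost without p53 activator replicate 1 (0.28) and kept on the protein-coding scale (0.19). The list's counts higher and lower were 1 and 4 on the protein-coding scale and 3 and 1 in edgeR, and in limma 3 and 1 without DMSO replicate 1 and 4 and 1 without p53 activator replicate 2. Without p53 activator replicate 1 limma called only the fall of Fgf14 in the list.

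The sodium leak channel complex showed genes going both ways. Nalcn encodes a sodium leak pore related to these channels, Unc79 and Unc80 its large cytoplasmic partners, and Nalf1 a subunit that helps it reach the surface. Of 5 genes tested, 1 rose and 3 fell (median -0.20). Nalf1 fell from 224 ± 14.2 to 151 ± 5.56 CPM (-0.57, limma adjusted p = 3.22e-09) and Unc79 from 264 ± 8.63 to 191 ± 3.74 CPM (-0.46, adjusted p = 8.52e-07). Unc80 (-0.20) and Nalcn, named after their values were seen, went in opposite directions: Nalcn rose from 167 ± 14.0 to 209 ± 7.33 CPM (0.32). Nalf2, without a call, stood at 21.1 ± 0.0423 and 22.6 ± 3.25 CPM. The falls of Nalf1 and Unc79 were called without each library in turn. The call of Unc80 was lost in all 4 such fits (-0.24 to -0.16), and that of Nalcn without DMSO replicate 1 (0.24). Unc79 (-0.61) and Unc80 (-0.35) were called on the protein-coding scale and Nalcn was not (0.17, adjusted p = 0.0723), while the symbols Nalf1 and Nalf2 had no match in the annotation used for that scale and were left out.

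Of 15 calcium channel partners tested, 3 were called higher and 1 lower (median 0.13), shares near those of protein-coding genes (21.2% and 7.19%). Akap5, an anchor of kinases at the L-type channel, rose from 86.8 ± 0.702 to 109 ± 3.86 CPM (0.32, limma adjusted p = 0.000895). Rims2, a scaffold that ties calcium channels to the active zone, fell from 128 ± 4.79 to 104 ± 11.0 CPM (-0.30, adjusted p = 0.00193), a call lost without DMSO replicate 1 (-0.26) or p53 activator replicate 2 (-0.19). Ncs1, a calcium sensor and the most abundant without a call, stood at 278 ± 24.5 and 304 ± 19.3 CPM. Rem2 (0.52) and Rims4 (0.22), named after their values were seen, also rose, and both lost the call without DMSO replicate 1 (0.46 and 0.15) or p53 activator replicate 1 (0.37 and 0.17). Of these 4 called genes, Rims2 alone was called on the protein-coding scale (-0.45), with Akap5 at 0.17, Rem2 at 0.41 and Rims4 at 0.07. Of the 6 Cacng genes tested, which encode γ subunits that mostly serve AMPA receptors, Cacng5 (0.44) and Cacng8 (0.30) rose, and on the protein-coding scale neither was called (0.31 and 0.16). Without DMSO replicate 1 neither Cacng5 (0.40) nor Cacng8 (0.25) was called, without p53 activator replicate 1 Cacng5 was not (0.39), and without p53 activator replicate 2 Cacng8 was not (0.27). Cacng4 had no call, at 61.1 ± 1.37 and 68.9 ± 1.03 CPM.

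Of 5 HCN partners tested, 1 rose and 2 fell. Kctd3, which binds Hcn3, rose from 73.0 ± 2.44 to 90.7 ± 0.860 CPM (0.31, limma adjusted p = 0.00159), a call lost without DMSO replicate 1 (0.28) and on the protein-coding scale (0.16). Flna, the actin crosslinker filamin A that binds HCN channels, fell from 210 ± 2.80 to 155 ± 4.19 CPM (-0.44, adjusted p = 3.41e-06), and was called lower on the protein-coding scale (-0.59) and without each library in turn. Magi2, a synaptic scaffold named after its values were seen, fell as well (-0.26), a call lost without DMSO replicate 1 (-0.22). Pex5l, which encodes TRIP8b, the main auxiliary subunit of HCN channels in the cortex, stood at 95.3 ± 1.89 and 104 ± 1.34 CPM without a call (0.12, adjusted p = 0.227).

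**Figure D5:**
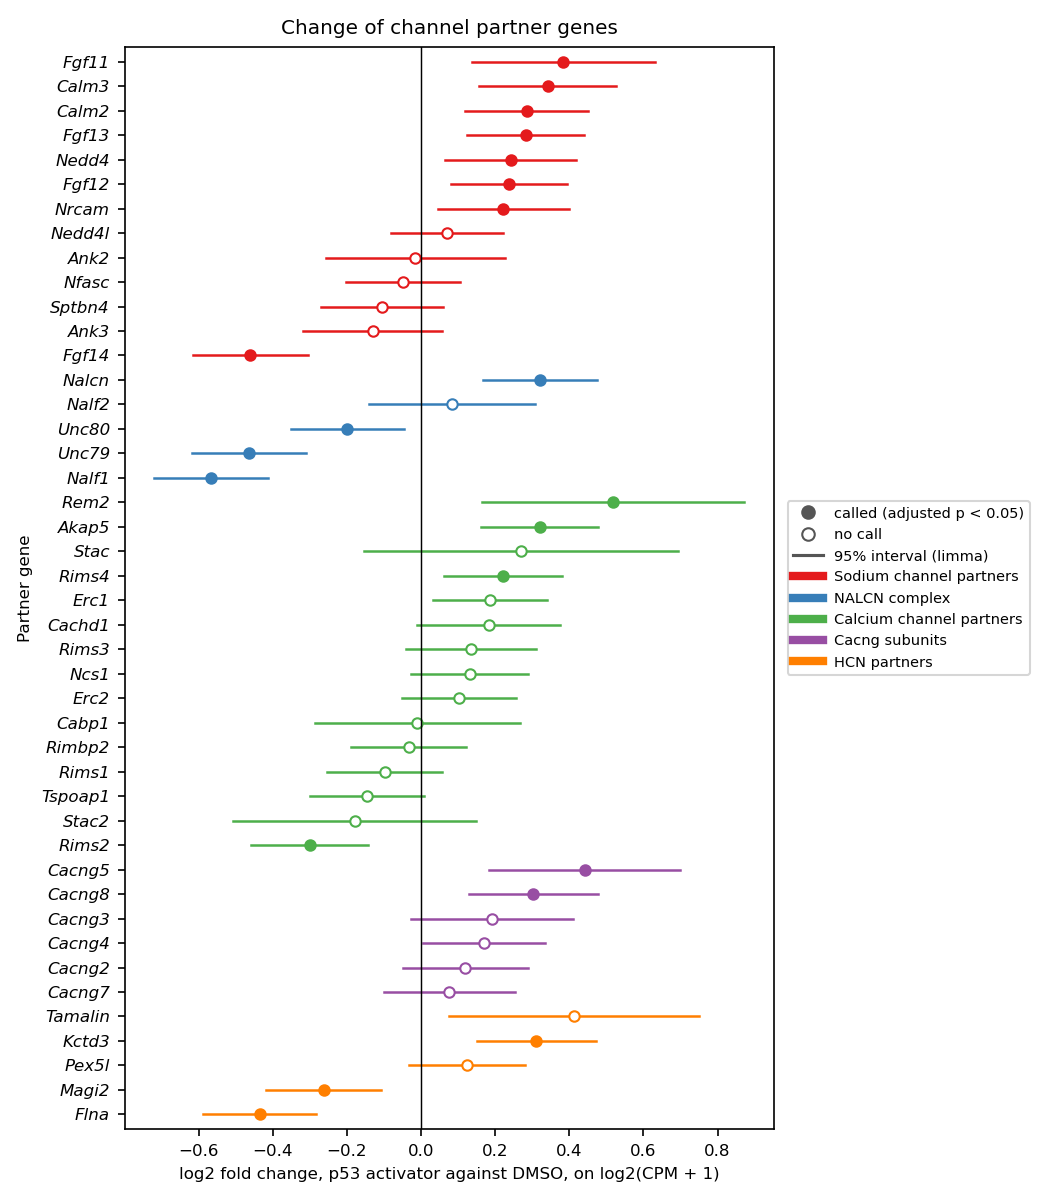
Log2 fold change (points, filled where called) with limma's 95% interval for channel partner genes tested, grouped by list. Fgf14 lies at -0.46 while Fgf11, Fgf12 and Fgf13 lie right of 0, and Nalf1, Unc79 and Unc80 lie left of 0 while Nalcn lies at 0.32.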

How the data were processed

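The authors deposited values in CPM, for 18854 genes and 4 libraries in 1 table. The unit was read from the values: 100% of values in each column are whole multiples of 1 step, within 0.01 reads, which gave back whole reads. At these depths 1 read was worth 0.0686, 0.0668, 0.0525 and 0.0564 CPM, and 0.133% to 0.208% of reads fell outside the listed genes. Per the submitters' processing notes, TopHat2, Cufflinks 2.0.0 and mm9 were used. The role of each is not stated there, and the read counter, strand setting and annotation remain not given in the sources used here.

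Genes with at least 1 CPM in 2 libraries were kept, which left 16654 and removed 2200. limma 3.58.1 (R 4.3.3) fitted the group difference on log2(CPM + 1) across all genes, with a trend of the spread with expression, two-sided. There were 2 residual and 98.0 prior degrees of freedom, so most of the spread in each test came from other genes. Intervals are limma's, at 95%. Replicates differed by more than sampling noise (chi-square per degree of freedom 4.52 for DMSO and 5.16 for the p53 activator). Alternatives were edgeR 4.0.16 and DESeq2 1.42.0 on the recovered reads, other scalings, filters, pseudocounts and variance models, a replicate block, and leaving out each library. Exon lengths, spans and gene classes came from GENCODE vM21, where 15861 symbols matched, among them all 34 channel genes. Its build, GRCm38, differs from mm9, so no coordinates were joined. On simulated data with known changes the fit was tested first. Those data held no shift in composition between the groups, so that test has no bearing on the choice of scale.

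The channel genes and the partner and marker lists were chosen with earlier results of these data known. Channel genes are named, but some genes are not reported here, although counts over all channel genes and over each list include them. Of each partner list, the 2 called genes with the smallest p and the most abundant gene without a call are named, with Trp53, Mdm2 and Cdkn1a as the check of the treatment, and others where the text says so.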

Additional observations from a re-analysis of the deposited data

How the results depend on the processing

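The number of channel genes called higher, 10 in the fit reported, was 4 with quantile normalization, 1 on the protein-coding scale, 0 in limma after cyclic loess (5 with an unadjusted p under 0.05), 0 in limma without the trend (9 with an unadjusted p under 0.05), 7 in edgeR and 6 in DESeq2. It ranged from 3 to 9 when 1 library was left out. The number called lower, 2, was 1 with a minimum of 5 CPM and 1 in DESeq2, where Cacna1f was filtered out or had no adjusted p, and ranged from 1 to 3 without 1 library. Over all genes, 2811 were called higher here, and 1822 with TMM scaling, 1632 with quantile normalization, 570 on the protein-coding scale, 642 after cyclic loess, 302 without the trend, 1872 in edgeR with TMM, 1307 in DESeq2 and 1140 to 2119 without 1 library. The 2721 called lower became 1776 with a minimum of 5 CPM, 1707 and 1250 on the scaled and loess-aligned protein-coding genes, 1508 in DESeq2 and 1367 to 2543 without 1 library. The cause of these differences was not tested. The fit reported covered 16654 genes, against 12091 with a minimum of 5 CPM. The scaled and loess-aligned fits covered 13040 and 12763 protein-coding genes. Rises made up 50.8% of all calls here, 13.3% in limma without the trend, 38.3% with TMM scaling, 39.7% in edgeR and 61.8% with a minimum of 5 CPM. Over protein-coding genes alone, rises made up 74.7% of calls in the fit reported, 25.03% on the protein-coding scale and 33.9% after cyclic loess.

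None of the 12 called channel genes changed sign in any of the 17 alternatives in which it was tested. Among genes without a call, the sign changed for 11 and 10 on the scaled and loess-aligned protein-coding genes, 8 with quantile normalization, 4 with TMM and 1 to 4 without 1 library. Pseudocounts of 0.1 and 0.5 and robust moderation changed no call of a channel gene, and leaving out the filter ended 2. The replicate numbers of the titles were also used as a replicate block, which gave 13 channel genes higher and 2 lower, and 3705 and 3132 over all genes. Scn8a, Hcn2 and Cacna1i were the calls gained. The correlation of same-numbered deviations was 0.12 over 16654 genes, with only 2 pairs, and the labels do not say what a shared number stands for, so the fit without the block was kept. The shares of Cacna1d, Scn2a and Scn3a in their classes kept their direction without length correction and without each library. Depth limits the low genes most: Cacna1f rests on 5 to 30 reads a library, Cacna2d4 on 15 to 32 and Scn7a on 17 to 42, and their intervals are wide.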
